A study of Danio rerio with 15 samples.

Results

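Amino acid transporter genes of 5 solute carrier families were compared between NRAS-driven zebrafish brain tumors and normal zebrafish brain. The genes were those of the deposited table whose symbol, ignoring case, starts with SLC3A, SLC7A, SLC36A, SLC38A or SLC43A, which gave 41 of 22513 genes. One of them, SLC7A6OS, is no transporter: it lies next to SLC7A6 and encodes a relative of a yeast factor for nuclear import of RNA polymerase II, so that 40 transporter or heavy chain genes remained. Most symbols in the gene name table are written as in human, and 12 of the 41 genes share a symbol with another copy. Such copies are given here with their Ensembl ID.

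The 7 brain tumor libraries (numbers 5, 6, 7, 8, 12, 13 and 14) came from tumors that the submitters name NRAS-driven CNS-PNET, a class of primitive neuroectodermal tumors of the brain and spinal cord. NRAS is a small GTPase of the Ras family. The 8 normal brain libraries (numbers 1, 2, 3, 4, 9, 10, 11 and 15) came from whole brain. The promoter of the driver, further alleles, strain, age and whether each library was a separate fish were not given in the sources used here, so p-values measure the spread between these libraries. Polyadenylated RNA was read in single reads of 50 cycles, and libraries held 13605588 to 21347976 counts in brain tumor and 14013245 to 18239799 in normal brain. At these depths 3 counts corresponded to 0.141 to 0.220 CPM (counts scaled to library depth).

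Amino acids cross cell membranes through carriers that differ in substrate, in the ions they need and in partner proteins. Light chains of the SLC7 family are held at the plasma membrane by a heavy chain of the SLC3 family and mostly exchange one amino acid for another. The cationic transporters of the SLC7 family carry arginine and lysine without a heavy chain. SLC38 carriers move glutamine and other small neutral amino acids with sodium, and SLC36 carriers move small amino acids with protons. SLC43A1 and SLC43A2 let large neutral amino acids pass without a heavy chain, while SLC43A3 carries purine bases in human. In brain, such carriers supply neurons and glia and take part in the cycling of glutamine between astrocytes and neurons.

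The transporter genes did not move as a block. The glutamine carrier SLC38A5, 1 copy of the leucine carrier SLC43A1, the light chain SLC7A7 and the arginine carrier SLC7A1 were higher in brain tumor, 3.26-fold to 13.2-fold. The lysosomal SLC7A14, SLC7A4, 1 copy of the astroglial glutamine carrier SLC38A3, SLC7A8, slc7a2 and slc7a11 were lower, 3.26-fold to 10.3-fold. The most abundant member, the heavy chain SLC3A2, and its light chain SLC7A5 did not pass the test.

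Of the 41 genes 39 passed the filter on low counts and were tested in a fit across 19260 genes with edgeR's quasi-likelihood test, which gave all adjusted p-values of single genes here. P-values were adjusted by Benjamini-Hochberg over those 19260 genes, and calls were made below 0.05. Among the 39, 10 were higher, 16 were lower and 13 did not pass, so that 66.7% were called, against 76.9% of all tested genes. By direction 25.6% were higher, where 43.5% of all tested genes were, and 41.0% were lower, where 33.4% of all tested genes were. At least 2-fold changes were called for 8 higher and 10 lower members, while 27.3% of all tested genes were called that much higher and 25.0% that much lower. The median log2 fold change of the 39 genes was -0.36 and that of all tested genes 0.21. In 15 of the 39 genes (38.5%) the groups did not overlap, 6 with every tumor above and 9 with every tumor below normal brain. Over all tested genes 51.9% had groups apart, 27.2% with every tumor above and 24.6% with every tumor below.

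Scaling moved these values. The median over all genes was 0.21 with the trimmed-mean factors used and 0.02 with median-ratio factors. Under median-ratio factors 8 members were higher and 16 lower, while 7264 of all tested genes were higher and 7252 lower. With the factors used, 8370 of all tested genes were higher and 6436 lower. The shares of 43.5% and 33.4% given throughout hold for the factors used. Marker sums of other tissues were high in single normal brains, for liver in number 1 (12897 CPM), photoreceptors in number 2 (309.9 CPM) and skin in number 4 (3944 CPM), and brain tumor 13 had the least neuronal marker RNA (565.7 CPM). Without these 4 libraries, 10 members were higher and 14 lower, among 14294 genes called in all, 8078 higher and 6216 lower. That comparison still held brain tumors 5, 6, 12 and 14, whose skeletal muscle markers summed to 894.0 to 2394 CPM. Normal brains had at most 337.2 CPM of them. It also held tumors 12 and 14 with skin marker sums of 1307 and 764.8 CPM.

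**Figure D1:**
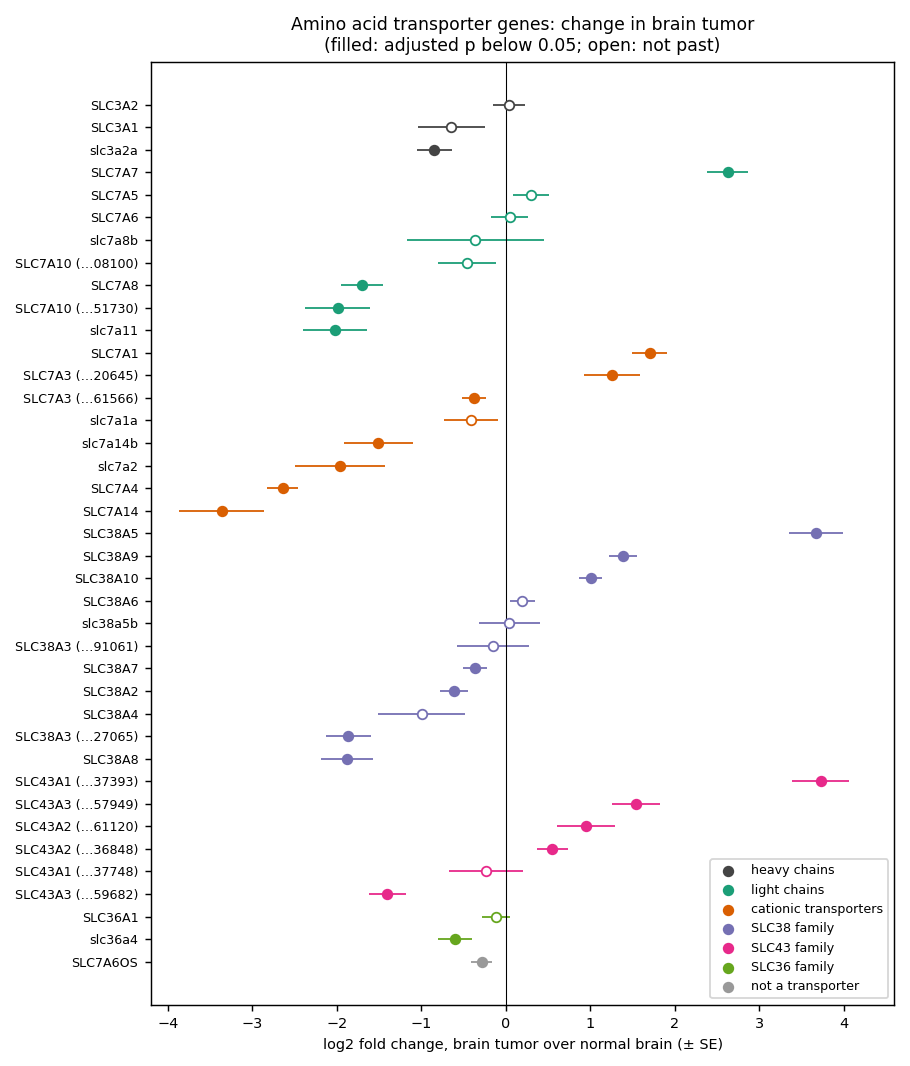
Log2 fold change of brain tumor over normal brain for the 39 tested members, with SE, coloured by family or role; filled points have an adjusted p below 0.05. SLC43A1 (ENSDARG00000037393) at 3.73 and SLC38A5 at 3.67 lie farthest to the right and SLC7A14 at -3.36 farthest to the left, while SLC3A2 lies at 0.04.

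Levels of different genes are set side by side per length, as the authors' FPKM (fragments per kilobase of gene length, scaled to library depth). The heavy chain SLC3A2 led in both groups, at 96.7 ± 38.5 FPKM in brain tumor and 100.5 ± 17.4 FPKM in normal brain (mean ± SD, n = 7 and 8). SLC38A2 came second in both, at 54.3 ± 19.5 and 87.6 ± 9.23 FPKM. The third place differed: it was held by 1 copy of SLC7A3 (ENSDARG00000020645) in brain tumor, at 47.8 ± 35.2 FPKM, and by 1 copy of SLC38A3 (ENSDARG00000027065) in normal brain, at 42.8 ± 2.86 FPKM. The tumor SDs of SLC38A2 and SLC7A3 overlap, so their order in tumors lies within the spread. Summed over the 40 genes, the FPKM had a lowest value of 234.6, a median of 455.8 and a highest of 479.0 in tumors, against 473.2, 532.5 and 559.0 in normal brain. The lowest sum was that of brain tumor 13, and the 2 groups met at their edges. SLC43 was the family with a larger median sum in tumors, 31.4 FPKM against 19.0 FPKM in normal brain. Its groups overlapped, with 21.1 to 52.6 FPKM in tumors and 14.5 to 24.8 FPKM in normal brain.

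**Figure D2:**
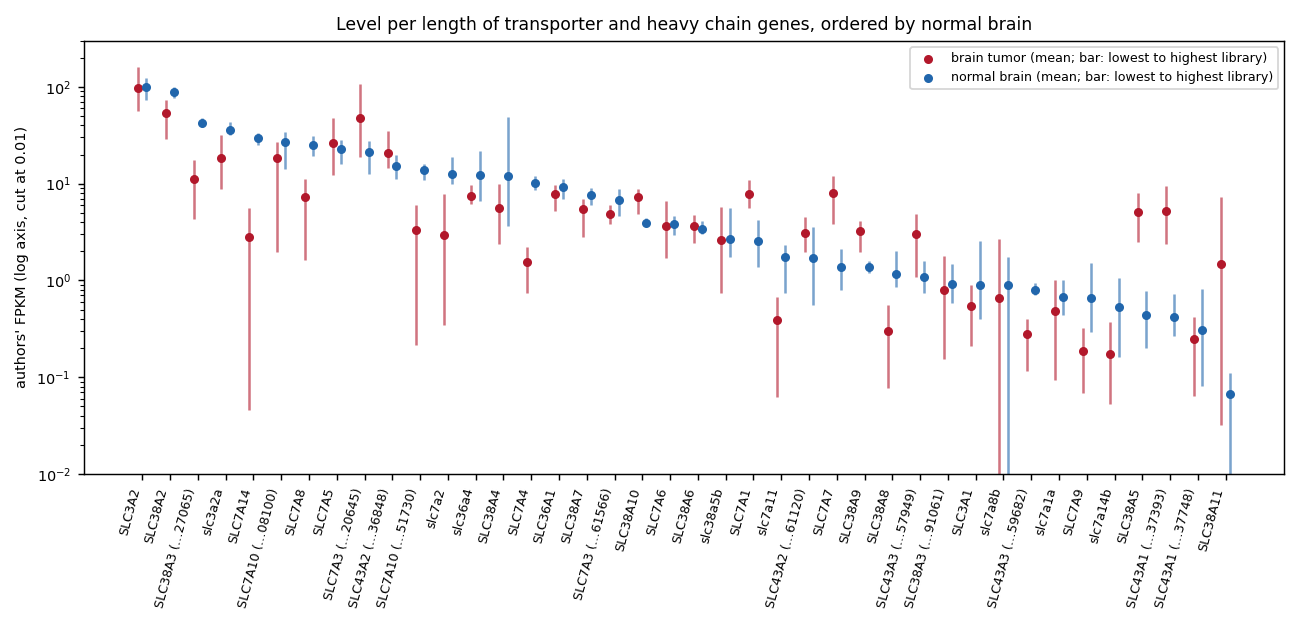
Authors' FPKM on a log axis for the 40 transporter and heavy chain genes, ordered by normal brain; points are means and bars run from the lowest to the highest library. SLC3A2 leads at 96.7 FPKM in brain tumor and 100.5 in normal brain, and the bars of SLC7A14 and SLC7A4 do not meet between groups.

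Heavy chains decide whether light chains reach the membrane, and SLC3A2 (CD98) is the general one. Its level in tumors had a lowest value of 139.7 CPM, a median of 172.8 and a highest of 334.3, against 143.7, 197.9 and 244.6 CPM in normal brain. Brain tumors 5 and 6 lay above every normal brain and tumor 13 below, and the groups overlapped (log2 fold change 0.04 ± 0.19 SE, adjusted p = 0.871). The duplicate slc3a2a had 24.5, 40.9 and 85.0 CPM as lowest, median and highest tumor values, against 71.8, 78.3 and 94.0 CPM in normal brain. All tumors but number 7 were below every normal brain, and slc3a2a fell (log2 fold change -0.85 ± 0.21, adjusted p = 0.0014). SLC3A1, the heavy chain that serves SLC7A9 in human kidney and gut, was low in both groups, with medians of 2.46 CPM in tumors and 2.54 CPM in normal brain, and did not pass (adjusted p = 0.149).

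Among the light chains 1 of 8 tested genes rose, 3 fell and 4 did not pass (43.5% rose and 33.4% fell over all tested genes). SLC7A5 (LAT1) carries large neutral amino acids such as leucine and is known from the blood-brain barrier and from many tumors. Its lowest, median and highest values were 25.3, 41.4 and 82.7 CPM in tumors and 26.0, 37.7 and 46.3 CPM in normal brain. Brain tumors 5 and 6, the same that were high in SLC3A2, lay above every normal brain, and the other tumors lay within or just below its range (log2 fold change 0.30 ± 0.22, adjusted p = 0.212). In libraries 1 to 8 alone SLC7A5 passed with a log2 fold change of 0.72 (adjusted p = 0.0373), while libraries 9 to 15 alone gave -0.45 (adjusted p = 0.111). These sets were cut by library number, since the labels give no batch. Each holds fewer libraries than the full comparison, so a gene can lose the threshold at a similar fold change. The difference between these library sets was not tested.

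SLC7A7 (y+LAT1) exports cationic amino acids in exchange for neutral ones and, in zebrafish, is a gene of microglial precursors. Its values were 11.3, 19.7 and 33.4 CPM as lowest, median and highest tumor, against 1.90, 3.10 and 4.94 CPM in normal brain. The groups did not overlap, and the gene rose 6.18-fold (log2 fold change 2.63 ± 0.24, adjusted p = 8.09e-08). Microglia and macrophage markers moved with it: 16 of 17 tested markers were higher, where 43.5% of all tested genes were. The 18 in the table summed to 2189 to 4748 CPM in tumors and to 794.0 to 1169 CPM in normal brain. Brain tumor 7 had the largest value of both the marker sum and SLC7A7, and brain tumor 13, with the least SLC7A7, had a marker sum of 3443 CPM. No marker was at 0 in all libraries of a group. In tissue samples more cells of a type and more RNA per cell cannot be told apart, and the part of microglia in this result was not tested.

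The decreases among light chains were in SLC7A8, 1 copy of SLC7A10 and slc7a11. SLC7A8 (LAT2), which exchanges neutral amino acids, had 12.1, 50.3 and 65.4 CPM in tumors and 110.5, 150.4 and 186.1 CPM in normal brain, as lowest, median and highest. No library of one group reached the other, and the log2 fold change was -1.71 ± 0.25 (adjusted p = 1.14e-05). SLC7A10 (Asc-1) carries glycine, D-serine and other small neutral amino acids. Its copy ENSDARG00000051730 had 0.589, 6.19 and 13.03 CPM in tumors, against 23.3, 30.5 and 33.8 CPM in normal brain, again without overlap (log2 fold change -1.99 ± 0.39, adjusted p = 0.000203). The other copy, ENSDARG00000008100, had medians of 60.01 CPM in tumors and 81.7 CPM in normal brain and did not pass (log2 fold change -0.46 ± 0.34, adjusted p = 0.233).

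The cystine-glutamate exchanger gene slc7a11 (xCT) was near the limit of detection. It had 0.0736, 0.472 and 0.636 CPM as lowest, median and highest tumor values, against 0.684, 1.77 and 2.17 CPM in normal brain. In raw counts that is 1 to 14 in tumors and 10 to 40 in normal brain, and the groups did not overlap after scaling (log2 fold change -2.02 ± 0.38, adjusted p = 0.000147). SLC7A6 (y+LAT2) and slc7a8b did not pass (adjusted p = 0.85 and 0.697). SLC7A6 had a median of 7.37 CPM in tumors and 7.21 CPM in normal brain. Its reads cannot be told apart from those of the neighbouring SLC7A6OS where the genes overlap, unless the counting used strand. SLC7A9 did not pass the filter, with 2 to 12 counts in tumors and 8 to 49 in normal brain.

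Among the cationic amino acid transporters 2 of 8 were higher, 5 lower and 1 not past the threshold. Over all tested genes 43.5% were higher and 33.4% lower. SLC7A1 (CAT1), the general importer of arginine and lysine, had 24.9, 35.0 and 49.5 CPM as lowest, median and highest tumor and 5.82, 10.8 and 17.6 CPM in normal brain. The groups did not overlap and SLC7A1 rose 3.26-fold (log2 fold change 1.70 ± 0.21, adjusted p = 2.01e-06). SLC7A3 (CAT3) is a brain-enriched relative with copies that parted. Copy ENSDARG00000020645 had 80.9, 142.3 and 466.4 CPM in tumors and 54.6, 89.5 and 120.5 CPM in normal brain, and rose (log2 fold change 1.26 ± 0.33, adjusted p = 0.00249). Brain tumors 12 and 14, at 406.1 and 466.4 CPM, were far above the other tumors, whose highest value was 185.7 CPM. In libraries 1 to 8 alone the change was 0.49 (adjusted p = 0.102), and in libraries 9 to 15 alone 1.80 (adjusted p = 0.011). Among the tumors, skin markers were also highest in tumors 12 and 14, with sums of 1307 and 764.8 CPM. The other tumors had 26.9 to 309.0 CPM. Normal brain 4 had a larger skin sum, 3944 CPM, and no normal brain exceeded 120.5 CPM of this SLC7A3 copy. Skeletal muscle markers summed to 2394 CPM in tumor 14 and 973.3 CPM in tumor 12, and also to 1189 CPM in tumor 6 and 894.0 CPM in tumor 5, which were not high in SLC7A3. The part of either tissue in this result was not tested.

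Of the remaining cationic transporters 5 fell, and slc7a1a did not pass (log2 fold change -0.41 ± 0.32, adjusted p = 0.255). SLC7A14, a lysosomal member of neurons and retina, had 0.295, 15.3 and 28.8 CPM as lowest, median and highest tumor, against 131.3, 153.9 and 169.8 CPM in normal brain. It was the largest decrease of the set, 10.3-fold (log2 fold change -3.36 ± 0.50, adjusted p = 1.5e-05), and brain tumor 13 held the lowest value. SLC7A4, whose substrates are less settled, had 2.25, 4.51 and 5.78 CPM in tumors and 21.7, 25.7 and 31.0 CPM in normal brain. With no overlap and a log2 fold change of -2.64 ± 0.19 (adjusted p = 3.6e-09) it had the smallest p-value of the members. The gene slc7a2 (CAT2), an arginine importer also used by macrophages, had 1.55, 5.66 and 33.2 CPM in tumors and 34.4, 37.9 and 66.2 CPM in normal brain. Tumors 5 and 7 came close to the normal range and the others stayed at 7.54 CPM or less (log2 fold change -1.97 ± 0.53, adjusted p = 0.00322). In libraries 1 to 8, which hold tumors 5 and 7, slc7a2 did not pass (log2 fold change -1.29, adjusted p = 0.102), and libraries 9 to 15 alone gave -3.60 (adjusted p = 0.00119). The smaller decreases were those of slc7a14b (log2 fold change -1.51 ± 0.41, adjusted p = 0.00309, with -2.20 in libraries 1 to 8 alone and -0.94 in libraries 9 to 15 alone, where it did not pass) and the second SLC7A3 copy, ENSDARG00000061566 (-0.38 ± 0.14, adjusted p = 0.0248).

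Neuronal markers fell alongside, in 20 of 20 tested genes, where 33.4% of all tested genes fell. The 21 markers in the table summed to 565.7 to 3061 CPM in tumors and 11736 to 13439 CPM in normal brain. Brain tumor 13 had the lowest neuronal sum and brain tumor 8 the highest, and SLC7A14 and SLC7A8 had their lowest and highest values in the same tumors. Other decreases shared part of this order or none. The genes slc7a2 and slc7a11 and the fallen SLC38A3 and SLC7A10 copies were also lowest in tumor 13. Their highest tumor was number 7 for slc7a2, 12 for SLC38A3 and 14 for SLC7A10 and slc7a11. SLC7A4 was lowest in tumor 7 and highest in tumor 6, and slc7a14b was lowest in tumor 7 and highest in tumor 14. The part of neurons in these decreases was not tested.

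Glutamine and small neutral carriers of the SLC38 family rose in 3, fell in 4 and did not pass in 4 of 11 tested genes. Over all tested genes 43.5% rose and 33.4% fell. SLC38A5 (SNAT5), a glutamine carrier of glia, had 11.5, 17.5 and 39.2 CPM as lowest, median and highest tumor, against 0.795, 1.53 and 2.94 CPM in normal brain. Every tumor was above every normal brain, tumor 13 the highest, and the gene rose 12.7-fold (log2 fold change 3.67 ± 0.32, adjusted p = 4.03e-08). It passed in both library sets, with log2 fold changes of 2.94 in libraries 1 to 8 alone and 4.36 in libraries 9 to 15 alone. SLC38A9 sits in the lysosomal membrane, where it senses arginine for the kinase complex mTORC1. It had 10.8, 20.7 and 25.7 CPM in tumors and 6.13, 7.04 and 8.23 CPM in normal brain, without overlap, and rose 2.61-fold (log2 fold change 1.39 ± 0.16, adjusted p = 1.06e-06). SLC38A10, a less studied relative, had 27.4, 45.5 and 63.1 CPM in tumors and 21.1, 22.3 and 24.8 CPM in normal brain. It rose 2.01-fold (log2 fold change 1.01 ± 0.13, adjusted p = 4.36e-06). With median-ratio factors its log2 fold change was 0.80, short of 2-fold but still past the threshold.

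SLC38A3 (SNAT3) is the carrier through which astrocytes release glutamine. Its copy ENSDARG00000027065 had 55.6, 146.9 and 184.8 CPM in tumors and 380.5, 439.5 and 505.8 CPM in normal brain. Each tumor lay well below each normal brain (log2 fold change -1.86 ± 0.26, adjusted p = 7.94e-06), and in FPKM the mean was 11.3 ± 5.92 in tumors and 42.8 ± 2.86 in normal brain. The astroglial marker list did not move one way: 3 of 11 tested markers were higher and 4 lower (43.5% and 33.4% over all tested genes). The list summed to 4421 to 9218 CPM in tumors and 6450 to 7147 CPM in normal brain. Oligodendrocyte lineage markers were higher in 12 and lower in 1 of 13 tested genes, beside the same shares of all tested genes. These markers summed to 13154 to 41462 CPM in tumors and 12636 to 19086 CPM in normal brain. The part of either cell type in the SLC38 results was not tested. SLC38A2 (SNAT2), a carrier known to be induced by lack of amino acids, had 182.3, 350.7 and 398.5 CPM in tumors and 398.3, 459.4 and 507.4 CPM in normal brain. Only tumor 6 reached the lowest normal brain, and SLC38A2 fell by a log2 fold change of -0.61 ± 0.17 (adjusted p = 0.00322). In libraries 1 to 8 alone it did not pass at a similar log2 fold change (-0.58, adjusted p = 0.0596). Libraries 9 to 15 alone gave -0.78 (adjusted p = 0.025).

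SLC38A6 (log2 fold change 0.20 ± 0.15, adjusted p = 0.238), slc38a5b (0.04 ± 0.36, 0.918) and the second SLC38A3 copy, ENSDARG00000091061 (-0.15 ± 0.43, 0.756), did not pass. SLC38A7, a lysosomal glutamine exporter, fell slightly (log2 fold change -0.37 ± 0.14, adjusted p = 0.0287), and SLC38A8, a glutamine carrier of the eye in human, fell at a low level (-1.88 ± 0.31, adjusted p = 3.81e-05) with medians of 0.451 CPM in tumors and 1.64 CPM in normal brain. SLC38A4, which is abundant in liver, had 249.6 CPM in normal brain 1 and 19.0 to 50.4 CPM in the other normal brains. That library also held 12897 CPM of liver markers, against 141.2 to 304.0 CPM in the other normal brains. The part of liver tissue in the SLC38A4 value was not tested. SLC38A4 did not pass (log2 fold change -0.997 ± 0.51, adjusted p = 0.0873), and without normal brain 1 the log2 fold change was -0.27 (adjusted p = 0.396). SLC38A11 failed the filter: brain tumor 13 had 234 counts, the other tumors 1 to 49 and the normal brains 0 to 3.

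**Figure D3:**
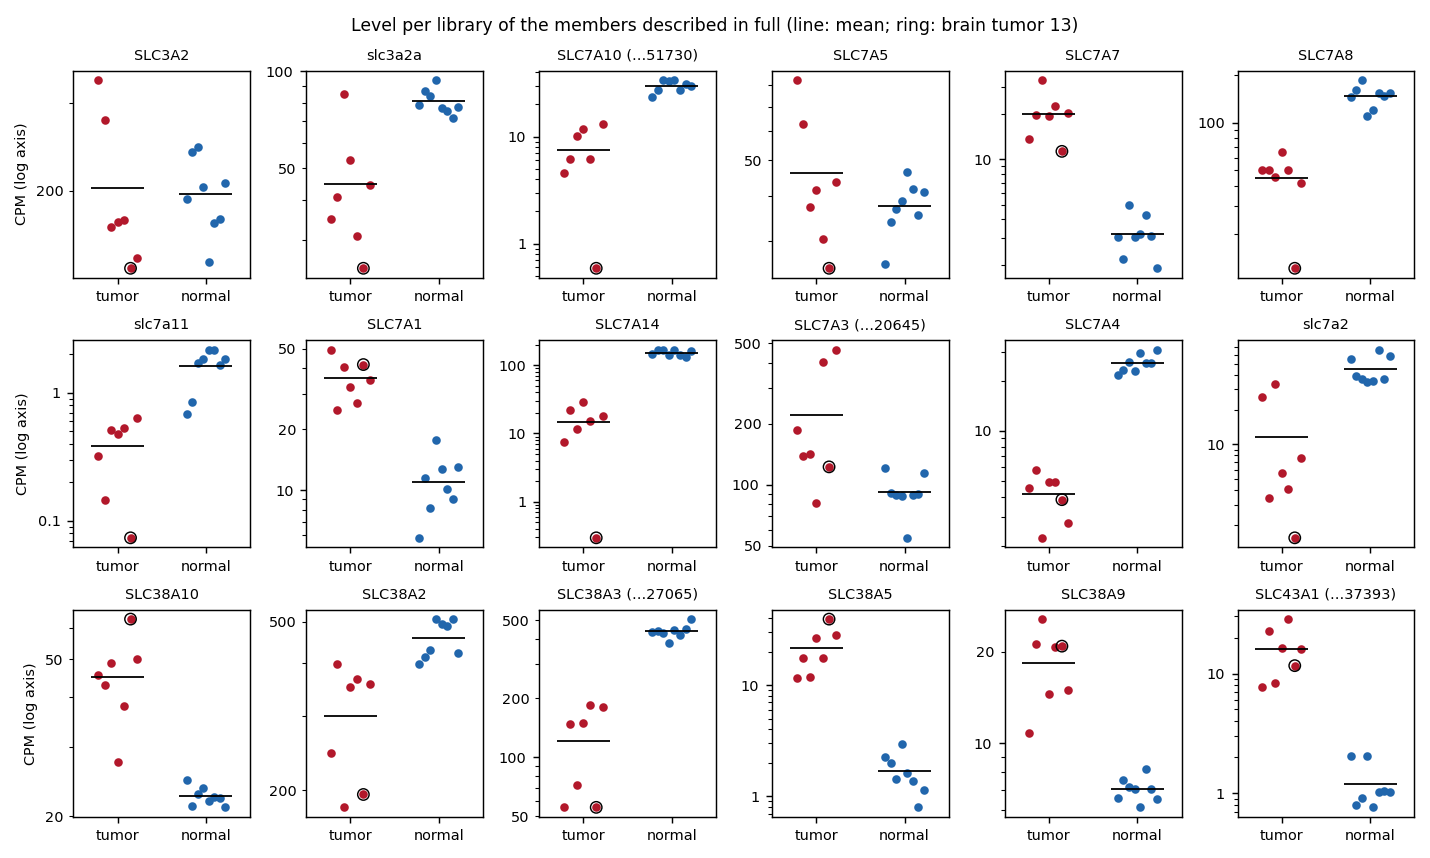
Level in CPM on a log axis in each of 7 brain tumor and 8 normal brain libraries for the 18 members given with all values; lines are means and rings mark brain tumor 13. SLC38A5 spans 11.5 to 39.2 CPM in tumors and 0.795 to 2.94 CPM in normal brain, whereas SLC3A2 and SLC7A5 overlap.

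SLC43 carriers, the SLC43A3 copies included, were higher in 4 of 6 cases, lower in 1 and not past the threshold in 1. Of all tested genes 43.5% were higher and 33.4% lower. SLC43A1 (LAT3) and SLC43A2 (LAT4) pass leucine, phenylalanine and methionine by facilitated diffusion. The SLC43A1 copy ENSDARG00000037393 had 7.74, 16.03 and 28.5 CPM as lowest, median and highest tumor, against 0.760, 1.02 and 2.05 CPM in normal brain. No tumor overlapped with normal brain, and this 13.2-fold increase was the largest among tested members (log2 fold change 3.73 ± 0.33, adjusted p = 5.38e-08). The other copy, ENSDARG00000037748, had medians of 0.774 CPM in tumors and 0.963 CPM in normal brain and did not pass (adjusted p = 0.633). Both SLC43A2 copies rose: ENSDARG00000036848 with medians of 90.1 CPM in tumors and 69.7 CPM in normal brain (log2 fold change 0.55 ± 0.18, adjusted p = 0.0122), and ENSDARG00000061120 with 12.3 CPM in tumors and 5.55 CPM in normal brain (0.95 ± 0.35, adjusted p = 0.0204). With median-ratio factors neither passed (adjusted p = 0.0962 and 0.0635), and the authors' deposited table gives adjusted p-values of 0.101 and 0.052 for them. Leaving out brain tumor 8 (for ENSDARG00000036848, adjusted p = 0.0559) or brain tumor 14 (for ENSDARG00000061120, 0.0684) also ended the call, as did leaving out normal brain 4 or 11, with adjusted p-values of 0.0617 to 0.0663 over both copies.

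SLC43A3, which carries purine bases in human, had copies that moved apart. ENSDARG00000057949 rose (log2 fold change 1.55 ± 0.29, adjusted p = 0.000125) and ENSDARG00000059682 fell (-1.40 ± 0.22, adjusted p = 2.26e-05), with medians of 6.81 and 0.774 CPM in tumors and 2.65 and 1.94 CPM in normal brain. The proton-coupled carrier slc36a4 fell (-0.60 ± 0.20, adjusted p = 0.0124) and the lysosomal SLC36A1 did not pass (-0.12 ± 0.16, adjusted p = 0.527). SLC7A6OS, the member that is no transporter, fell by -0.28 ± 0.12 on the log2 scale (adjusted p = 0.0446).

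Duplicate copies allow a comparison that does not depend on library scaling, since the ratio of 2 copies is taken within each library. The 11 pairs were each tested with a two-sided exact permutation test over all 6435 assignments of libraries, adjusted over the 11 pairs, where the smallest possible p is 0.000311. In 9 pairs the ratio differed between groups, and in 5 of them the groups did not overlap. Ratios of other gene pairs were not computed, so these counts have no background share and are not read as a trait of the transporters. Of single tested genes 76.9% were called and 51.9% had groups apart. Reads that match both copies could have been split or left out in the authors' counting, so the share of each copy is uncertain to that extent.

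The largest shifts were in SLC43A1 and SLC38A5. In SLC43A1 the log2 ratio of ENSDARG00000037393 over ENSDARG00000037748 was 4.05 ± 0.61 in tumors and 0.26 ± 0.76 in normal brain (mean ± SD), a difference of 3.79 (exact permutation adjusted p = 0.000684). The second of these copies had only 4 to 30 counts in tumors and 5 to 44 in normal brain. SLC38A5 over slc38a5b had 1.15 ± 1.28 in tumors and -2.61 ± 0.39 in normal brain, a difference of 3.76 (exact permutation adjusted p = 0.000684). Their order depended on the setting. With 5 added in place of 0.5, with FPKM ratios, or without normal brains 1, 2 and 4 and brain tumor 13, SLC38A5 shifted more. Over these settings the difference was 3.32 to 3.45 for SLC43A1 and 3.46 to 3.54 for SLC38A5. In SLC38A5 the order of the copies turned in most tumors. The copy slc38a5b had more counts in every normal brain, and SLC38A5 had more in every tumor except number 12. In tumor 5 the 2 copies were nearly equal, at 179 counts for SLC38A5 and 178 for slc38a5b. SLC43A3 shifted by 2.86 toward ENSDARG00000057949, slc7a1a over SLC7A1 by -2.32 and SLC7A10 by 1.73 toward ENSDARG00000008100, each with groups apart and an exact permutation adjusted p of 0.000684. Here too some copies had low counts. The SLC43A3 copy ENSDARG00000059682 had 5 to 20 in tumors and 28 to 40 in normal brain, and slc7a1a had 4 to 55 and 18 to 46.

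Smaller or more scattered shifts were seen in the remaining pairs. SLC7A14 over slc7a14b differed by -2.52 (exact permutation adjusted p = 0.00147), and by -1.90, still past the threshold, without brain tumor 13. The log2 ratio of tumor 13 was 0.85, where the other tumors had 4.18 to 6.47. SLC7A14 had only 4 counts in that tumor, and slc7a14b had 2 to 18 counts in tumors and 6 to 34 in normal brain. SLC38A3 differed by -1.46 toward ENSDARG00000091061 (0.00114 by the same test) and SLC7A3 by 1.37 toward ENSDARG00000020645 (0.00256). The heavy chain pair slc3a2a over SLC3A2 differed by -0.93 (exact permutation adjusted p = 0.0103), with log2 ratios of -2.21 ± 0.77 in tumors and -1.27 ± 0.21 in normal brain. Without normal brains 1, 2 and 4 and brain tumor 13 this pair did not pass (exact permutation adjusted p = 0.0635). The SLC43A2 pair (difference -0.60, exact permutation adjusted p = 0.126) and slc7a8b over SLC7A8 (1.35, 0.259) did not pass.

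**Figure D4:**
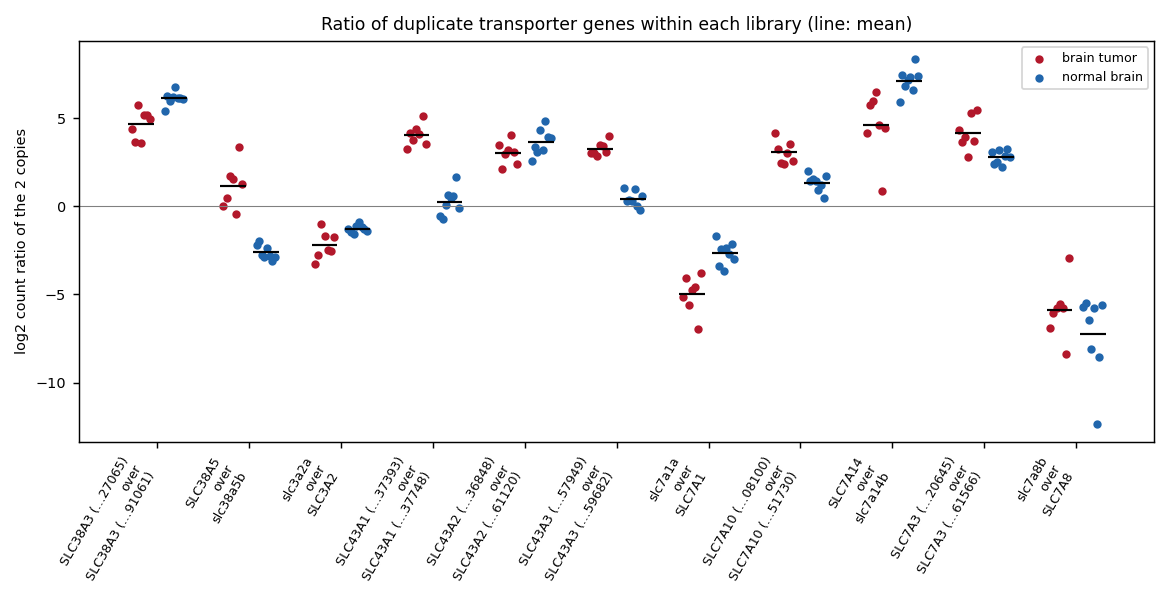
Log2 count ratio of the 2 copies of each duplicated member within each library, brain tumor left of normal brain in each pair; lines are means. The SLC43A1 copies sit at a mean of 4.05 in tumors and 0.26 in normal brain, and those of SLC43A2 overlap.

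The tumors differed more among themselves than the normal brains. Of the 39 tested members 31 had a larger SD of log2 CPM in tumors, a smaller share than the 92.2% of all tested genes. Over all 41 members the median SD was 0.59 in tumors and 0.34 in normal brain. Over all tested genes the medians were 0.49 and 0.19. Brain tumor 13 was the lowest tumor in 19 of the 41 members and the highest in 4. The same shares over all tested genes were not computed, so these counts are not read as particular to the members. This tumor also had the fewest genes detected, 20458 against 21472 to 22185 in the other tumors. Its SLC7A10 copy ENSDARG00000008100 stood at 7.14 CPM, where the other tumors had 50.5 to 82.3 CPM, and SLC7A8 at 12.1 CPM, where they had 41.7 to 65.4 CPM. In the same tumor SLC38A5, SLC38A10 and SLC38A11 were the highest of all tumors.

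**Figure D5:**
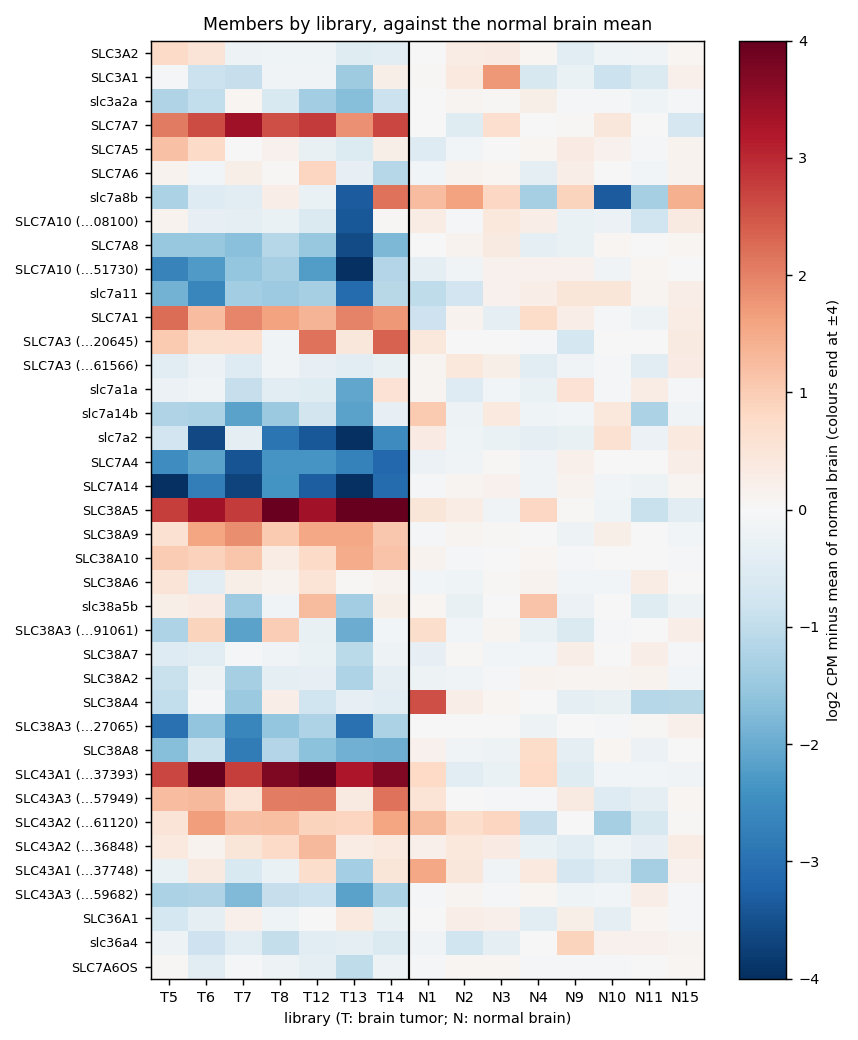
Log2 CPM of each tested member minus its normal brain mean, by library, brain tumors left and normal brains right of the line; red is higher and blue lower, with colours ending at 4. SLC38A5, SLC43A1 (ENSDARG00000037393) and SLC7A7 are red in all 7 tumors, and in the rows of SLC7A8 and both SLC7A10 copies brain tumor 13 is the deepest blue.

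Other genes of amino acid handling were counted from lists written from textbook knowledge. Of all tested genes 76.9% were called, 43.5% higher and 33.4% lower, and each list is to be read against these shares. Cytosolic aminoacyl-tRNA synthetases, which load amino acids onto tRNA, rose in 20 of 20 cases (median log2 fold change 1.16), led by RARS1 (1.77 ± 0.11) and KARS1 (1.87 ± 0.12). Genes of the amino acid response under the transcription factor ATF4 rose in 14, fell in 4 and did not pass in 7 of 25 cases (median 0.65), so that 72.0% were called, a share near that of all tested genes. ALDH18A1, of proline synthesis, rose by 1.62 ± 0.15 and the translation repressor gene eif4ebp1 by 1.62 ± 0.13, while STC2 (ENSDARG00000056680, -2.43 ± 0.37) and the transcription factor gene atf5a (-2.36 ± 0.35) fell. ASNS, the asparagine synthetase, rose by 1.41 ± 0.16 and was named after its value was seen.

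Lysosomal amino acid sensing genes around mTORC1, the group in which SLC38A9 acts, rose in 21, fell in 4 and did not pass in 6 of 31 cases (median 0.69), with 80.6% called. TFEB, a transcription factor of lysosome genes, rose by 4.02 ± 0.12 and SEH1L, a scaffold protein of this pathway and of the nuclear pore, by 2.14 ± 0.13. RPTOR, the mTORC1 scaffold, fell (-0.53 ± 0.10), as did CASTOR2 (-0.95 ± 0.17). Carriers of the SLC1, SLC6 and SLC16 families rose in 5, fell in 8 and did not pass in 3 of 16 tested cases (median -0.67), with 81.2% called. SLC6A17, a vesicle carrier of neurons, fell by -3.71 ± 0.30 and the glutamate carrier SLC1A1 by -2.27 ± 0.23, whereas SLC6A15, a carrier of branched-chain amino acids, and SLC16A10, a carrier of aromatic ones, rose (0.92 ± 0.22 and 0.62 ± 0.14). In libraries 9 to 15 alone SLC6A15 did not pass (0.61, quasi-likelihood adjusted p = 0.0954), nor did SLC16A10 in libraries 1 to 8 alone (0.42, quasi-likelihood adjusted p = 0.106).

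Enzymes that use glutamine and glutamate rose in 7, fell in 11 and did not pass in 2 of 20 tested cases (median -0.56), with 90.0% called. The glutamate dehydrogenase gene glud1a rose by 2.33 ± 0.16 and CTPS1 (ENSDARG00000030700), which makes CTP from glutamine, by 1.70 ± 0.11. GOT1, an aspartate aminotransferase, and OAT, an ornithine aminotransferase, fell (-1.71 ± 0.10 and -2.21 ± 0.15). Cystine and glutathione genes rose in 8, fell in 3 and did not pass in 3 of 14 tested cases (median 0.45), so that 78.6% were called, again near the share of all tested genes. TXNRD3, a thioredoxin reductase, and CTH, which makes cysteine, rose (1.17 ± 0.11 and 0.90 ± 0.14), and cbsb, the enzyme before CTH, and GCLC, of glutathione synthesis, fell (-2.24 ± 0.28 and -0.36 ± 0.10). GCLC did not pass in libraries 1 to 8 alone (-0.36, quasi-likelihood adjusted p = 0.0795). Cell division genes, counted for comparison, rose in 15 of 15 cases (median 4.65), with CCNB1 at 5.18 ± 0.20 and TYMS at 4.50 ± 0.17.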

How the data were processed

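RNA sequencing of 7 brain tumor and 8 normal brain libraries was analysed from 1 deposited table of 22513 genes. Per the labels, RNA was isolated with RNeasy kits and libraries were made with TruSeq RNA v2 and oligo dT. Novoalign 2.08.01 and DESeq2 are named in the submitters' processing notes, while counter, genome build and annotation were not given in the sources used here. Whole reads per gene, without normalization, are the deposited counts, per the file headers. The authors' FPKM are scaled to gene length and to the library total, as tested on the file. The authors' log2 fold change and their adjusted p-value column were used only where named. Symbols came from a table of gene names and matched 20915 genes.

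Counts were analysed with edgeR 4.0.16 in R 4.3.3: filterByExpr (minimum count 10, minimum total 15) kept 19260 genes, followed by TMM scaling and a quasi-likelihood fit with group as the only term. SE is the absolute log2 fold change over the square root of F. CPM use scaled library sizes, and log2 CPM a prior count of 2. Copy ratios used counts plus 0.5. The pipeline was tested on simulated data in which only a small share of genes changed. That test does not cover scaling where most genes are called, as here. The floor of 3 counts covers counting error only.

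Values of every library were given for members past the threshold with at least 2-fold change whose higher group averaged 10 CPM or more, and for SLC3A2, SLC7A5, slc7a11 and SLC38A2 copies. Of each gene list the 2 smallest p-values in each direction were named. Members, lists and alternatives were chosen with earlier results of these data known. Alternatives were other scalings and filters, a robust fit, DESeq2 1.42.0, limma-voom (limma 3.58.1), library sets cut by number, and leaving out each library.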

Additional observations from a re-analysis of the deposited data

Results flagged for a closer look

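Among 82 combinations of member and group, 8 held 1 library far from the rest by Dixon's test at the 95% level on log2 CPM, a test that chance alone passes in about 1 in 20 groups. Of these, 5 were in brain tumor 13, and the share of such flags over all genes was not computed. There SLC7A14 had 0.295 CPM against 7.54 to 28.8 CPM in the other tumors, and SLC7A8 had 12.1 CPM against 41.7 to 65.4 CPM. The SLC7A10 copies had 7.14 CPM (ENSDARG00000008100, 50.5 to 82.3 CPM in the other tumors) and 0.589 CPM (ENSDARG00000051730, 4.58 to 13.03 CPM). SLC38A7 had 9.79 CPM there and 14.8 to 20.1 CPM in the other tumors.

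The remaining 3 were in normal brain. SLC38A4 had 249.6 CPM in normal brain 1, against 19.0 to 50.4 CPM in the others. The gene slc38a5b had 21.7 CPM in normal brain 4, against 7.03 to 10.3 CPM, and SLC7A3 (ENSDARG00000020645) had 54.6 CPM in normal brain 9, against 87.9 to 120.5 CPM.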

How the results depend on the processing

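No count moved by over 1.5 times. Members called numbered 26, with 19 (libraries 1 to 8 alone) to 28 (no filter) under the alternatives and 24 to 27 with each library left out in turn. All genes called numbered 14806, with 11657 to 16365 and 14170 to 15085 in the same order, and genes of the related lists 120, with 96 to 122 and 114 to 122. Copy pairs past the threshold numbered 9, with 8 to 10 and 9 to 10. Of 1045 member values under the alternatives 1001 kept their direction and side of the threshold or stayed short of it, 38 lost the threshold, 6 gained it and 0 changed sign while past it, and the cause was not tested. The members that lost it under limma-voom were slc36a4, slc7a14b, SLC38A7, SLC7A3 (ENSDARG00000061566) and both SLC43A2 copies. SLC38A4 passed with DESeq2 (log2 fold change -1.19), without brain tumor 8 (-1.25) or without normal brain 11 (-1.24), SLC7A10 (ENSDARG00000008100) and SLC7A5 in libraries 1 to 8 alone, and slc7a1a without brain tumor 14 (-0.78). SLC7A6OS lost the threshold without brain tumor 6 or 12 or normal brain 3, 10 or 15 (adjusted p from edgeR's quasi-likelihood test 0.0505 to 0.0815), and SLC38A7 without brain tumor 5 or 6 or normal brain 9 (0.0501 to 0.0558). The slc7a8b and SLC7A8 pair passed with 5 in place of 0.5 added, and the SLC43A2 pair without brain tumor 12. Called values that moved by over 1.5 times and kept the call included SLC7A14 (-3.95) and slc7a2 (-2.64) under limma-voom. In libraries 9 to 15 alone they included SLC1A1 (-2.88), atf5a (-3.09), cbsb (-2.97), slc7a2 (-3.60) and SLC38A5 (4.36). In libraries 1 to 8 alone they included slc7a14b (-2.20) and SLC38A5 (2.94). No paired analysis was made because the labels give no pairing. Depth limits slc7a11, slc7a14b, slc7a8b, SLC7A9, SLC38A8 and SLC38A11, whose counts reach the floor of 3 in at least 1 library.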

Other observations

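The light chain duplicate slc7a8b was uneven within both groups. It had 0 counts in brain tumor 13 and in normal brain 10, which allows up to 3 counts, and 6 counts in brain tumor 5 and in normal brains 4 and 11. The highest counts were 120 in brain tumor 14 and 59 in normal brain 2. In SLC38A11 brain tumor 13 reached 17.2 CPM, brain tumors 12 and 6 had 2.62 and 1.98 CPM, and no normal brain exceeded 0.205 CPM.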
